A study of Rattus norvegicus with 20 samples.

Results

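The 9 genes described here mark oligodendrocytes and the myelin they make: Mbp, Mog, Mag, Mobp, Cnp, Mal, Ugt8, Olig1 and Olig2. They were chosen by name, and every array probe that was not a control and carried one of these symbols, current or older, was taken. This gave 14 of the 30367 probes and 9 of the 25926 gene names on the array. Their levels were measured in the hypothalamic arcuate nucleus of 20 female Sprague-Dawley rats on postnatal day (P) 15, with 4 rats in each of 5 conditions.

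The first letter of a condition gives the prenatal exposure, the second whether spasms were induced, and the third the postnatal treatment. SNS rats were exposed to saline before birth, had no infantile spasms and received saline. In the other 4 conditions the mothers had been given 2 injections of betamethasone, a synthetic glucocorticoid, at 0.4 mg/kg on gestational day 15. BNS rats had no spasms, received saline in place of the trigger and were treated with saline. BYS, BYA and BYP rats had spasms triggered with the glutamate receptor agonist NMDA, given on P12, P13 and P15. BYS rats were treated with saline, BYA rats with ACTH, the pituitary hormone that drives the adrenal cortex, and BYP rats with PMX53, an antagonist of the complement receptor C5ar1. Treatment began on P13 by the labels and on P12 by the methods. Spasms were not induced in rats exposed to saline before birth, so the prenatal exposure was compared in rats without spasms and the treatments in betamethasone-exposed rats. The replicates were separate animals whose litters are not given, so rats of a condition may share a mother.

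Each array carried RNA of 1 rat in the Cy3 channel and of another in the Cy5 channel, and each channel was taken as 1 sample. Of the 11 arrays, 9 held 2 rats of the same condition, and on 2 arrays a BYA rat shared the array with a male rat that was not analysed here. For BYA replicate 3 the label's dye disagrees with the order in which the raw data name the rats, so that it is not certain which of the 2 rats the channel holds. The conditions lay on slides of their own, and slide and condition cannot be told apart. Signal strength also differed between the conditions: a spot stood above its local background by a median factor of 15.9 in both BNS and BYS, but of 6.89 in SNS, 7.48 in BYA and 9.12 in BYP. The part of this in the results below was not tested. All 8 markers of arcuate neurons were measured, with a log2 of summed intensity between 16.0 and 17.3 in the 20 samples.

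Oligodendrocytes wrap axons in layers of membrane that speed conduction, and in the rat brain most myelin forms in the weeks after birth. Olig1 and Olig2 are helix-loop-helix transcription factors. Olig2 specifies the lineage and is present from the precursor stage on, and Olig1 acts later, in differentiation and repair. Mbp and Mobp are small basic proteins that hold the inner faces of the membrane together. Mag and Mog are adhesion molecules of the immunoglobulin family, at the axonal face and at the outer surface of the sheath. Cnp is an enzyme of the non-compact myelin and one of the earlier genes to come on, Mal is a raft protein that sorts myelin components to the membrane, and Ugt8 makes galactosylceramide, a main lipid of myelin.

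Levels are given as log2 of the normalized intensity, and differences as differences between such log2 values, so that 1 unit is a doubling. A gene counts as called where the adjusted p of limma, a linear model fitted to all genes at once, is under 0.05. A level belongs to its probe, and only levels of the same probe or gene are compared. In a piece of tissue, fewer oligodendrocytes and less RNA in each oligodendrocyte cannot be told apart.

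Of the 14 probes, each 60 bases long, 13 passed the filter on dim probes, so that all 9 genes were measured. In the rat build rn4, which the array design uses, 1 probe each lay at chr10:89524880-89524939 (Cnp), chr3:115167515-115167574 (Mal), chr20:1611776-1611835 (Mog), chr11:31246213-31246272 (Olig1) and chr2:222979766-222979825 (Ugt8). Mag had 2 probes, at chr1:85954517-85954576 and chr1:85954601-85954660. Mobp had 3, at chr8:125143743-125143802, chr8:125135770-125135829 and chr8:125136405-125136464. Mbp had 2, at chr18:79026442-79026501 and chr18:79057264-79057323. Mag, Mal and Ugt8 lie on the minus strand of the build and the others on the plus strand.

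The 2 Mbp probes read different parts of the gene. The probe at chr18:79026442-79026501 is listed for 1 RefSeq transcript and is called the variant probe here. The probe at chr18:79057264-79057323 is listed for 4 RefSeq transcripts and is called the shared probe. The shared probe has no value in SNS replicate 1, where the scanner software marked the spot as an outlier, so the level of the gene Mbp rests on the variant probe.

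Olig2 rests on 1 of its 2 probes. The measured probe, at chr11:31208654-31208713, starts at base 2511 of the transcript, in the 3′ untranslated region, and was well above background in 20 of 20 samples. The other, at chr11:31206731-31206790, starts at base 588, in the coding region, and was well above background in 1 of 20 samples, BYS replicate 4. Its sequence is shown as the part of Olig2 that could not be measured. The sequences of a Mobp and the Cnp probe are shown beside it as examples of the stretches whose signal is reported.
Olig2, probe in the coding region, not used: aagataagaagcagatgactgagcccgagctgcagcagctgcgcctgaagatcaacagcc
Mobp, probe at chr8:125135770-125135829: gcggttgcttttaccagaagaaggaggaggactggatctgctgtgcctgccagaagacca
Cnp, probe at chr10:89524880-89524939: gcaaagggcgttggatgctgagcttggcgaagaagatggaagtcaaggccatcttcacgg

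Of the transcription factors, Olig2 was higher in all 4 betamethasone-exposed conditions than in SNS. Its log2 level was 11.35, 11.26, 11.21 and 11.39 in SNS replicates 1 to 4, and 12.28, 12.30, 12.24 and 12.59 in BNS. In the same replicate order it was 12.65, 12.77, 12.28 and 12.57 in BYS, 12.29, 12.07, 12.20 and 12.39 in BYA, and 12.44, 12.31, 12.22 and 12.70 in BYP. The highest SNS rat thus lay below the lowest rat of every other condition, and the 4 other conditions overlapped. Over all genes, 32.5% had values that did not overlap between BNS and SNS, 27.1% between BYS and SNS, 26.7% between BYA and SNS and 26.6% between BYP and SNS.

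From SNS to BNS, the comparison of the prenatal exposure without spasms, Olig2 rose by 1.05 (SE 0.115, 95% confidence interval 0.81 to 1.29, 2.07-fold, adjusted p = 4.14e-06). It was the 1 member of 9 that was called, where 28.6% of all genes were. The mean log2 level was 11.30 ± 0.08 in SNS and 12.35 ± 0.16 in BNS (SD, n = 4). The other comparisons with SNS share the same 4 control rats and are therefore not independent of this one. Olig2 was higher by 1.27 in BYS (2.40-fold, adjusted p = 7.05e-07), by 0.94 in BYA (1.91-fold, adjusted p = 1.24e-05) and by 1.11 in BYP (2.16-fold, adjusted p = 2.44e-06). The same shares over all genes were 27.1% in BYS, 31.3% in BYA and 28.9% in BYP. When the channels were only brought to a common median, without quantile normalization, the difference was 0.70 in BNS and 0.64 in BYP, both with adjusted p = 0.0562. The calls of BYS, at 1.35, and of BYA, at 0.92, held under that scaling. With each of the 20 samples left out in turn, BYA replicate 3 included, the 4 calls held, and the differences ran from 0.99 to 1.09 for BNS, 1.21 to 1.35 for BYS, 0.90 to 1.02 for BYA and 1.03 to 1.17 for BYP.

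In increasing order, the mean level of Olig2 was that of SNS, BYA (12.24 ± 0.14), BNS, BYP (12.42 ± 0.21) and BYS (12.57 ± 0.21). Over the 5 conditions together Olig2 was the 1 of 9 members called by limma's F test (adjusted p = 2.28e-06), where 30.3% of all genes were. The step from SNS to BYA was called, and none of the other 6 comparisons, among the 4 betamethasone-exposed conditions, was. The share of variation within conditions was 9.28% for Olig2, against 55.0% to 97.1% for the other 8 members.

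Olig1, which lies near Olig2 on chromosome 11, was not called in any of the 10 comparisons. Its means were 13.47 in SNS, 13.38 in BNS, 13.60 in BYS, 13.68 in BYA and 13.73 in BYP, with SDs between 0.18 and 0.54. The difference from SNS to BNS was -0.10, with a 95% confidence interval from -0.61 to 0.42, an interval that lies below that of Olig2.

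**Figure D1:**
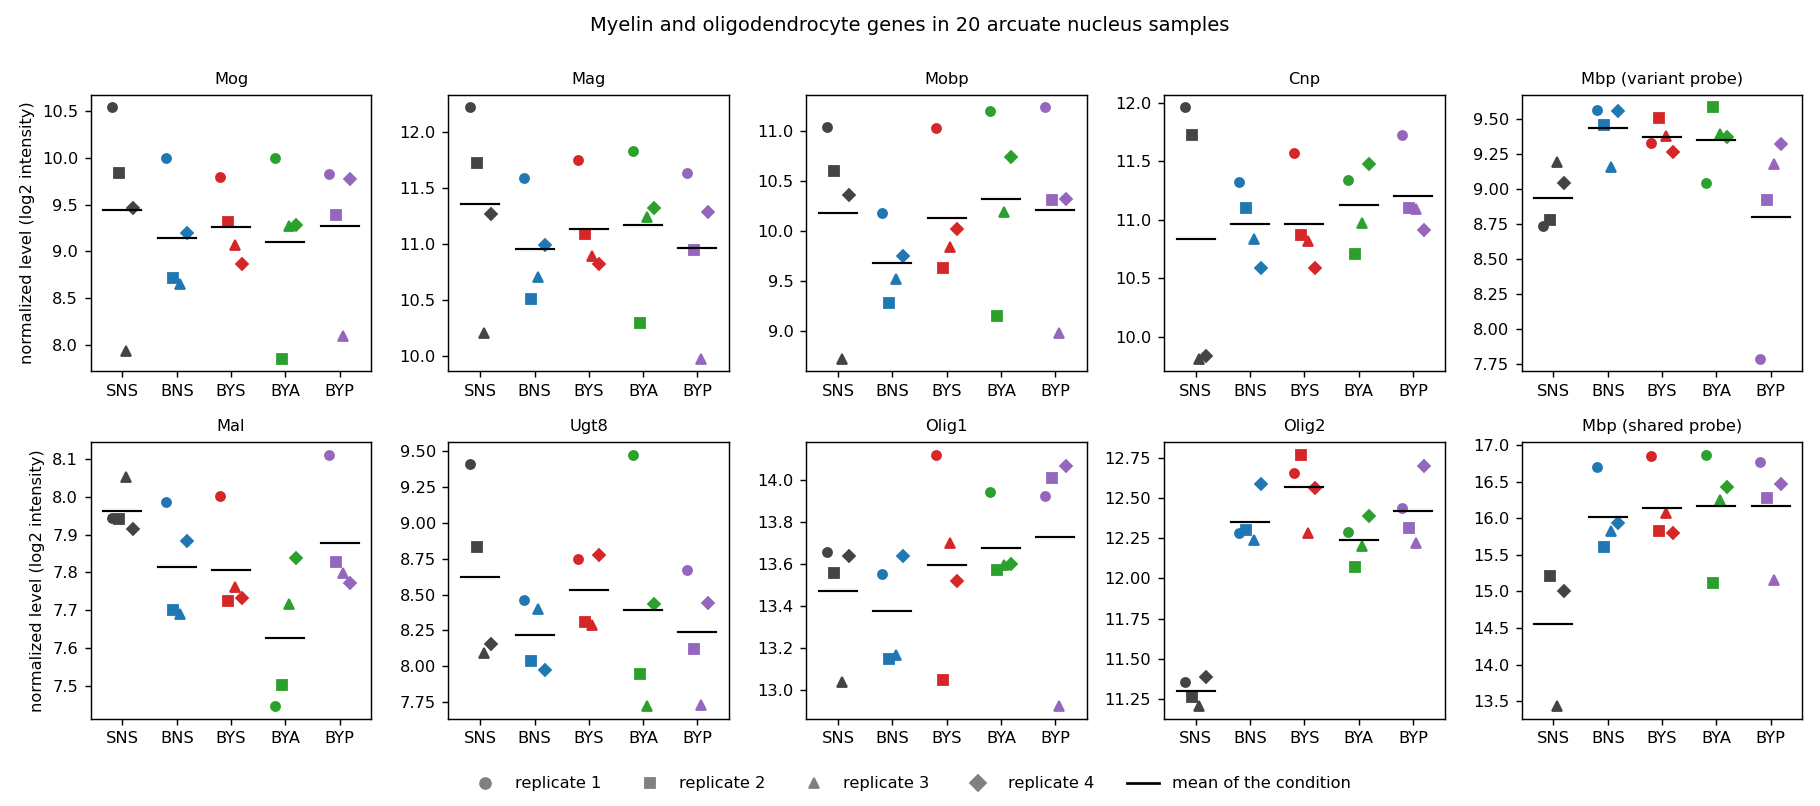
Log2 levels of the 9 members in the 20 samples by condition, with a panel for each gene and for both probes of Mbp, a symbol for each replicate number and a bar at each condition's mean (the vertical axes differ between panels). In the panel of Olig2 the 4 SNS rats (11.21 to 11.39) lie below all others (12.07 to 12.77). In no other panel does SNS lie apart from all 4 other conditions.

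Mog, Mag, Mobp and Cnp were not called between SNS and BNS, and rats differed widely within each condition. Mog, the adhesion molecule of the outer surface, read 10.55, 9.83, 7.93 and 9.47 in SNS replicates 1 to 4, and 10.00, 8.71, 8.65 and 9.20 in BNS. It read 9.80, 9.32, 9.07 and 8.86 in BYS, 10.00, 7.85, 9.27 and 9.28 in BYA, and 9.83, 9.39, 8.09 and 9.77 in BYP. The conditions overlapped in every pair, and replicate 1 was the highest in each of the 5. SNS replicates 1 and 3 differed 6.11-fold. The means of Mog lay between 9.10 in BYA and 9.45 in SNS, with SDs of 0.40 in BYS, 0.63 in BNS, 0.81 in BYP and 0.90 in BYA (n = 4) and a higher one in SNS.

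Mag and Mobp were alike in this. Mag spanned 10.21 to 12.22 in SNS, 10.51 to 11.59 in BNS, and 10.82 to 11.74 in BYS, with 10.30 to 11.83 in BYA and 9.98 to 11.63 in BYP. Mobp spanned 8.72 to 11.04 in SNS, 9.27 to 10.18 in BNS, and 9.62 to 11.03 in BYS, with 9.15 to 11.20 in BYA and 8.97 to 11.24 in BYP. Within a condition the rats thus differed up to 4.03-fold in Mag and 4.99-fold in Mobp, and both genes were highest in replicate 1 in 5 of 5 conditions. From SNS to BNS, the difference was -0.31 for Mog (95% confidence interval -1.39 to 0.78), -0.40 for Mag (-1.27 to 0.46) and -0.50 for Mobp (-1.58 to 0.58). All 3 intervals hold both 0 and -1, so that neither no change nor a fall by 1 log2 unit is left out by them.

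Cnp spanned 9.82 to 11.96 in SNS, a 4.43-fold range, with replicates 1 and 2 at 11.96 and 11.72 and replicates 3 and 4 at 9.82 and 9.84. Replicates 1 and 2 shared 1 array and replicates 3 and 4 another, so this gap also lies between arrays. In BNS, BYS and BYP replicates 1 and 2 also lay above replicates 3 and 4, but not in BYA. By the names of the raw data, replicates 1 and 2 of every condition lay on the array numbered 2 of their slide. Replicates 3 and 4 lay on one numbered 1, apart from BYA replicate 3. The parts of the array and of its number in this were not tested. In the conditions other than SNS, Cnp lay between 10.59 and 11.72. Ugt8, the lipid enzyme, lay between 7.72 and 9.48, with both ends in BYA, a 3.38-fold range. From SNS to BNS the difference was 0.13 for Cnp (95% confidence interval -0.69 to 0.94) and -0.41 for Ugt8 (-1.09 to 0.28), and neither was called.

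Mal, the raft protein, was lower in BYA than in SNS. It read 7.94, 7.94, 8.05 and 7.92 in SNS replicates 1 to 4 and 7.45, 7.50, 7.72 and 7.84 in BYA, so that all 4 BYA rats lay below all SNS rats. Between BYA and SNS the level fell by 0.34 (SE 0.107, 95% confidence interval -0.56 to -0.11, adjusted p = 0.0231), which made Mal and Olig2 the 2 of 9 members called in this comparison, where 31.3% of all genes were. Over all genes, 26.7% had BYA and SNS values that did not overlap. The values of BNS (7.69 to 7.99), BYS (7.73 to 8.00) and BYP (7.77 to 8.11) overlapped with those of SNS. Mal is a dim probe, well above background in 11 of 20 samples, with 1 of 4 in SNS and 1 of 4 in BYA, so that its difference lies near the detection limit. The probe passed the filter on dim probes through BYS alone. The call was lost without SNS replicate 3 (-0.32, adjusted p = 0.0541), without BYA replicate 1 (-0.26, adjusted p = 0.0844) and without BYA replicate 2 (-0.31, adjusted p = 0.0663). It was also lost in limma with the channels brought to a common median (adjusted p = 0.521).

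The 2 probes of Mbp disagreed. The variant probe read 8.73, 8.78, 9.19 and 9.05 in SNS replicates 1 to 4, 9.57, 9.46, 9.15 and 9.56 in BNS, and 9.33, 9.51, 9.38 and 9.27 in BYS. It read 9.04, 9.59, 9.39 and 9.38 in BYA and 7.79, 8.92, 9.18 and 9.32 in BYP. All BYS rats lay above all SNS rats, while SNS overlapped with the 3 other conditions, and BYP replicate 1 was the lowest of the 20. Over all genes, 27.1% had BYS and SNS values that did not overlap. The variant probe was well above background in 18 of 20 samples, but not in SNS replicate 1 or BYP replicate 1. The difference from SNS to BNS was 0.50 (SE 0.224, adjusted p = 0.102), and none of the 10 comparisons was called. Without BYP replicate 1, Mbp was called in BNS, BYS and BYA against SNS. With all samples, 28.6%, 27.1% and 31.3% of all genes were called there. That rat is in none of these 3 comparisons, and leaving it out acts mainly through the estimate of spread that all conditions share.

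The shared probe read 15.20, 13.43 and 15.01 in SNS replicates 2 to 4. In replicates 1 to 4 it read 16.70, 15.61, 15.82 and 15.93 in BNS, 16.85, 15.83, 16.07 and 15.80 in BYS, 16.87, 15.11, 16.25 and 16.43 in BYA, and 16.77, 16.28, 15.16 and 16.47 in BYP. The 3 SNS values lay below all values of BNS and BYS, and overlapped with BYA and BYP. No share over all probes is given for this, and 3 values separate from 4 more easily than 4 from 4. With each probe tested alone over all probes, the shared probe was higher than in SNS by 1.45 in BNS (SE 0.483, 2.74-fold, adjusted p = 0.0327), where 28.7% of all probes were called. It was higher by 1.57 in BYS (adjusted p = 0.0239), by 1.60 in BYA (adjusted p = 0.0188) and by 1.61 in BYP (adjusted p = 0.0200), where 27.4%, 31.9% and 29.2% of probes were called. These values leave out SNS replicate 1.

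With the value marked as an outlier kept, SNS replicate 1 read 15.78, above the lowest rats of BNS, BYA and BYP. The difference from SNS was then 1.16 in BNS (adjusted p = 0.0646), 1.28 in BYS (adjusted p = 0.0454), 1.31 in BYA (adjusted p = 0.0364) and 1.31 in BYP (adjusted p = 0.0393). With a common median it was 0.85, 1.41, 1.53 and 1.04 in the same order, and none of the 4 was called, with adjusted p from 0.0832 to 0.264. The test of each probe alone was chosen after the data had been seen.

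The induced spasms and the 2 treatments were compared within the betamethasone-exposed rats. Between BYS and BNS, the comparison of the spasms, 0 of 9 members were called, where 0.0293% of all genes were, and 0 of 9 had an unadjusted p under 0.05, beside 1183 of 17086 genes. The smallest p belonged to Olig2, higher by 0.22 in BYS (95% confidence interval -0.03 to 0.46, adjusted p = 0.769). The largest fitted difference was 0.45 for Mobp, with an interval from -0.63 to 1.53. Across the members the median difference was 0.19, against 0.00 over all genes.

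Between BYA and BYS, the comparison of ACTH with saline, 0 of 9 members and 0% of all genes were called by limma, and 1 of 9 members and 1379 genes had an unadjusted p under 0.05. That member was Olig2, with a difference of -0.33 (SE 0.115, 95% confidence interval -0.57 to -0.09, adjusted p = 0.475). Its values overlapped, since the lowest BYS rat (12.28) lay below the highest BYA rats (12.29 and 12.39). 

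Between BYP and BYS, the comparison of PMX53 with saline, 0 of 9 members were called, where 0.0351% of all genes were. The smallest p belonged to the variant probe of Mbp, with a difference of -0.57 (SE 0.224, adjusted p = 0.480). Without BYP replicate 1, where that probe was not well above background, the difference was -0.24, and by the shared probe it was 0.031. No member was called between BYA and BNS (0.117% of all genes), between BYP and BNS (1.50%) or between BYP and BYA (0.158%). By limma, 0, 1 and 2 of the 9 members had an unadjusted p under 0.05 in these comparisons, beside 2241, 3045 and 2329 of 17086 genes.

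**Figure D2:**
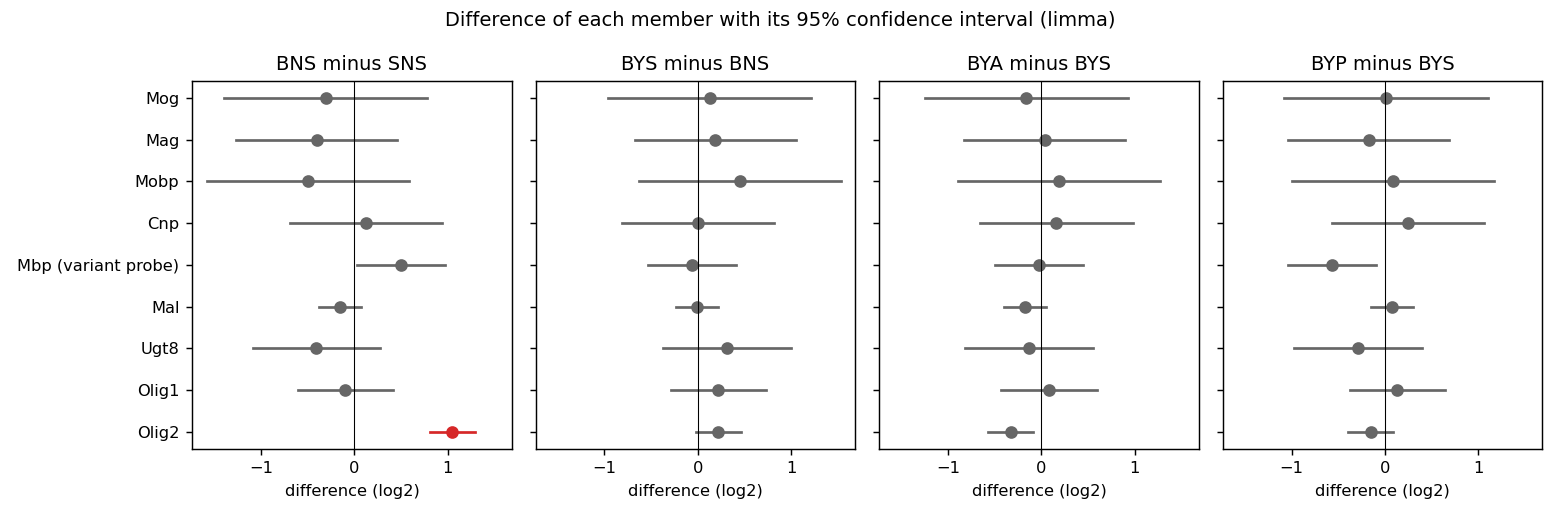
Differences in log2 level of the 9 members in 4 comparisons, with 95% confidence intervals and called genes in red. Olig2 from SNS to BNS (1.05) is the 1 red point, and the widest intervals are those of Mog and Mobp.

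Most of the variation in the sheath genes lay between rats of the same condition, and there these genes moved together. The share of variation within conditions was 97.1% for Mog, 94.2% for Cnp, 93.2% for Mag, 90.8% for Mobp and 88.6% for Ugt8. The SD within conditions of Mog, 0.828 after the dye effect was removed, ranked at the 99.7th percentile of the 16299 genes with values in all samples, whose median SD was 0.193. Mobp, Mag, Cnp and Ugt8 ranked between the 97.8th and the 99.6th percentile, Olig1 at the 92.7th, Olig2 at the 30.5th and Mal at the 22.4th.

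The departures of each rat from the mean of its condition were then correlated over the 20 samples. These values share the array and slide and are given without a test. Pearson's r was 0.985 between Mog and Mag, 0.958 between Mag and Mobp and 0.926 between Mog and Mobp. With a common median these were 0.957, 0.929 and 0.932. The genes lie on chromosomes 20, 1 and 8 and were read by separate probes, and r was 0.936 between the 2 probes of Mag and 0.928 to 0.988 between the 3 of Mobp.

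The shared probe of Mbp followed the same rats, with r between 0.951 and 0.957 to these 3 genes over 19 samples. The variant probe ran the other way, with r from -0.60 to -0.38, and the 2 Mbp probes had r = -0.44 to each other. The other members followed less closely: r to Mog, Mag and Mobp was 0.66 to 0.70 for Cnp, 0.70 to 0.75 for Ugt8, 0.71 to 0.79 for Olig1, 0.54 to 0.61 for Olig2 and 0.24 to 0.34 for Mal. SNS replicate 3, BYA replicate 2 and BYP replicate 3 had the lowest departures of their conditions in Mog, Mag and Mobp. Replicate 1, which carried Cy3 in every condition, had the highest level of these genes in all 5, and with the dye effect removed BYP replicate 4 was higher than BYP replicate 1 in Mog. Replicate numbers do not tie rats of different conditions together by the labels. Replicate 1, however, had the same array number on its slide in every condition, and the part of that number was not tested.

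**Figure D3:**
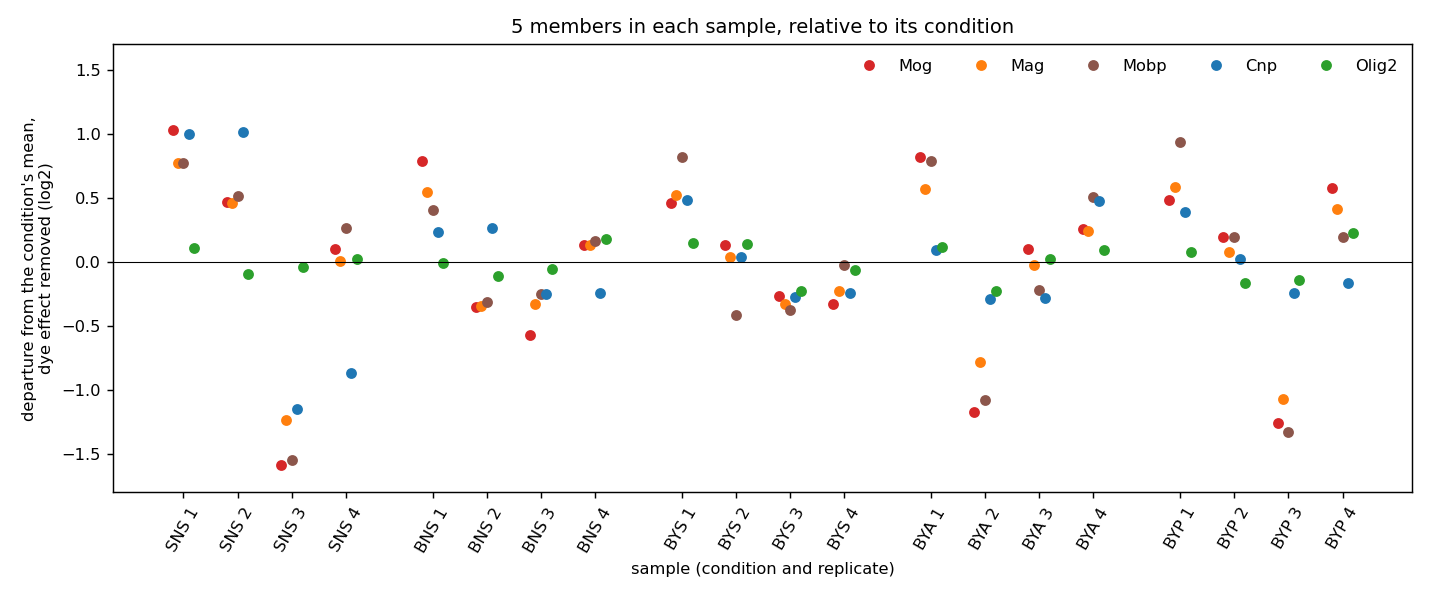
Departure of each rat from its condition's mean (log2, dye effect removed) for Mog, Mag, Mobp, Cnp and Olig2 in the 20 samples. Mog, Mag and Mobp lie close together in most rats, with SNS replicate 3, BYA replicate 2 and BYP replicate 3 far below their condition, while Olig2 stays near 0.

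**Figure D4:**
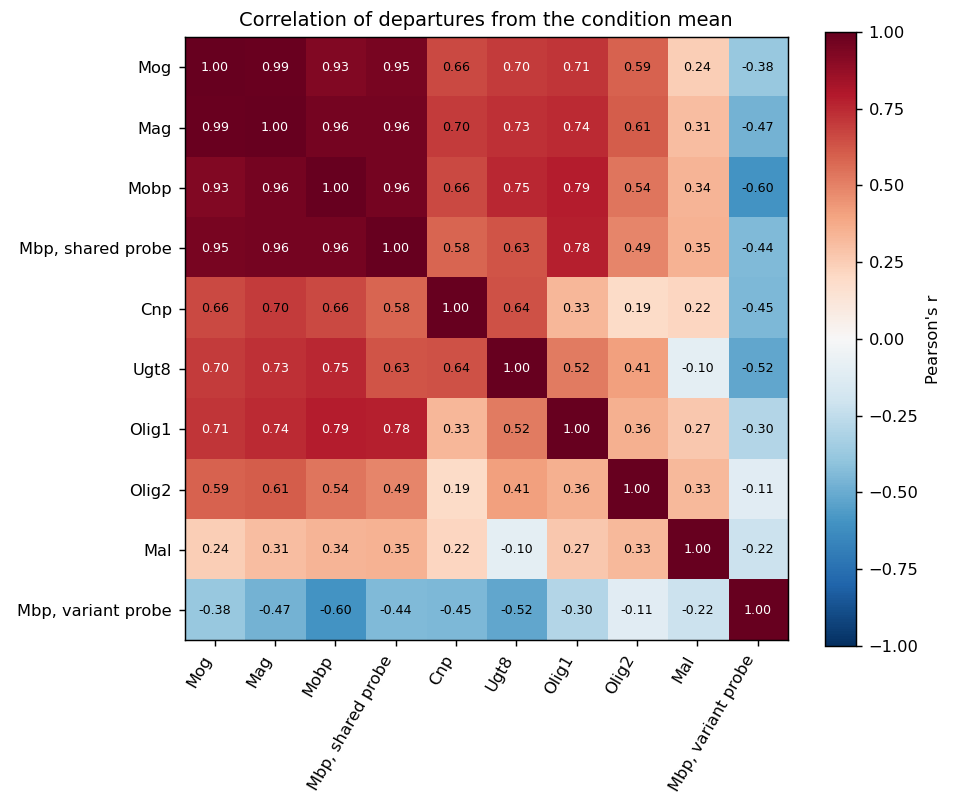
Pearson's r between the members' departures from their conditions' means (19 samples for the shared Mbp probe, otherwise 20). Mog, Mag, Mobp and the shared probe of Mbp form a block with r of 0.926 or more, and the variant probe of Mbp has negative values to Mog, Mag and Mobp.

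Genes other than the members that were most like them were then sought. Over 20 samples, the mean of the members' standardised departures had, among 16299 genes, r values near the highest with Ermn (0.946), Gpr83 (0.936), Klk6 (0.930) and Crh (0.923). Ermn encodes a cytoskeletal protein of mature oligodendrocytes and Klk6 a protease that oligodendrocytes make. Gpr83 is a receptor of neurons, and Crh encodes corticotropin-releasing hormone, a neuropeptide. Rats of the same condition differed up to 2.53-fold in Ermn and up to 4.95-fold in Crh.

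The relation was then set beside lists of cell types. An r above 0.5 to the mean of the members was found for 938 of the 16299 genes (5.75%). The share was 11 of 17 other sheath genes (median r 0.69), 5 of 9 other oligodendrocyte transcription factors (0.63), 5 of 10 precursor genes (0.42), 8 of 19 genes of mature oligodendrocytes (0.49) and 5 of 25 genes of lipid synthesis (0.27). It was 2 of 8 neuron markers, 1 of 10 astrocyte markers, 1 of 8 microglia markers, 3 of 7 endothelial and mural markers and 1 of 3 Schwann cell markers. It was 0 of 8 for arcuate neurons (median r -0.46), 0 of 7 for ependyma and tanycytes (-0.35), 0 of 7 for thalamus and ventromedial hypothalamus (-0.07) and 0 of 3 for pituitary (-0.15). Among the arcuate neuron markers r ran from -0.70 to 0.48. It ran from -0.68 to 0.47 among the thalamus and ventromedial hypothalamus markers and from -0.58 to 0.28 among those of ependyma and tanycytes. A count of r above 0.5 leaves out the negative values. The part of these cell types in the variation of the members was not tested. The Schwann cell markers Prx and Ncmap, on the array, did not pass the filter on dim probes.

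The promoters of members that moved together are shown for their motifs. RefSeq promoter windows (build GRCr8, 250 bases before to 50 after a listed start of a gene) were at hand for 7 of 9 members. They were searched on both strands for ACAAAG, a core of SOX factors such as Sox10 that drive myelin genes, and for CTGGCAC or CTGGTAC, a core of the myelin regulator Myrf. Neither motif contains the other. Of 33469 windows, 18.8% held ACAAAG and 6.78% held CTGGCAC or CTGGTAC. The Mobp window held 8 matches to ACAAAG, where 7 windows (0.0209%) held 5 or more. Mag and Cnp held 1 each of both motifs, Mal and Olig2 held 1 of the Myrf core, 1 of the 2 Mbp windows held 1 ACAAAG, and Ugt8 held neither. CANNTG, the E-box core that helix-loop-helix factors such as Olig2 can bind, was in 72.1% of all windows and in 5 of the 8 members' windows. A match is a run of letters and not a site.

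Sequences are shown for Mobp and Mag, whose levels moved together, and for Cnp, which followed them less closely. Each is the part of the window directly before the gene's first RefSeq base, 135, 161 and 250 bases long in this order. The Mobp and Mag windows thus hold fewer than 250 bases before that base. All are given on each gene's own strand and with matches in capitals (ACAAAG reads CTTTGT on the other strand).
Mobp, chr8:128746982-128747116, plus strand: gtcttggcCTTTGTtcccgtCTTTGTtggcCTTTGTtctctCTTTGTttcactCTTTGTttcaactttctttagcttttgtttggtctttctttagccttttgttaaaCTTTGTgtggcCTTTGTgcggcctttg
Mag, chr1:95291134-95291294, minus strand: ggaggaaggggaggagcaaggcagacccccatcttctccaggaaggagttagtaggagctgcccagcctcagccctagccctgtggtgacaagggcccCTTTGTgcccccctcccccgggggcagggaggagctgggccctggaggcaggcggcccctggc
Cnp, chr10:86011254-86011503, plus strand: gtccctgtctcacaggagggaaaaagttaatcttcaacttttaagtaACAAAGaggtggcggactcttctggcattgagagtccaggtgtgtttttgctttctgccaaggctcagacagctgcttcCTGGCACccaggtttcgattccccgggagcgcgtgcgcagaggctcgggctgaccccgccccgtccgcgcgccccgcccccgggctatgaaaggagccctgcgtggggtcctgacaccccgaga

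Of the stretch shown for Mobp, 7 of the matches lie within it. The Myrf core of Mag lies at the edge of the stretch shown and is not marked.

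Further genes of the oligodendrocyte, 83 measured in 5 lists without the members, were read in the same way. From SNS to BNS, 15 rose and 6 fell, with a median difference of 0.00. Over all genes 28.6% were called, with 2585 of 17083 higher and 2296 lower, so that the count of called genes is near the background. With the channels brought to a common median, 791 of all genes were higher and 1863 lower, so the balance of directions depends on the scaling. The lists are given one by one as a description, and no difference between them was tested. Of 17 other genes of the sheath, 0 rose and 2 fell, Cntn2, an adhesion protein of axon and glia near the node (-0.39), and Plekhb1 (-0.48), with a median of -0.23. Of 9 other transcription factors, Id4, an inhibitor of helix-loop-helix factors that binds Olig proteins, rose (0.99), and Myrf (-0.40) and Tcf7l2 (-0.58), both needed for differentiation, fell. Of 10 precursor genes, 0 rose and 2 fell, Gpr17, a receptor of cells about to differentiate (-0.38), and Vcan, a proteoglycan of the matrix (-0.36).

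Of 19 genes of mature oligodendrocytes, 6 rose and 0 fell, where 28.6% of all genes were called, with a median of 0.41. Lpar1, a receptor for lysophosphatidic acid, rose by 1.23 (SE 0.151, adjusted p = 1.30e-05), Qdpr, an enzyme that recycles tetrahydrobiopterin, by 0.64 (SE 0.0862, adjusted p = 3.22e-05), and Mcam, an adhesion molecule, by 0.89 (SE 0.142, adjusted p = 0.000186). The others were Cryab, Evi2a and Anln. Several of the 6 are also made by other cells, Mcam by vessels and Cryab by astrocytes.

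Of 28 genes of lipid synthesis, 8 rose and 0 fell, where 28.6% of all genes were called, with a median of 0.08. Hmgcs1 (1.34, SE 0.148, adjusted p = 9.26e-06) and Sc5d (1.16, SE 0.168, adjusted p = 7.29e-05) act in cholesterol synthesis, as do Mvd, Sqle and Ebp. Insig1 holds that pathway in check, and Sgms1 (0.75, SE 0.122, adjusted p = 0.000226) makes sphingomyelin. All cells use these enzymes, so that the list is not specific to oligodendrocytes.

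**Figure D5:**
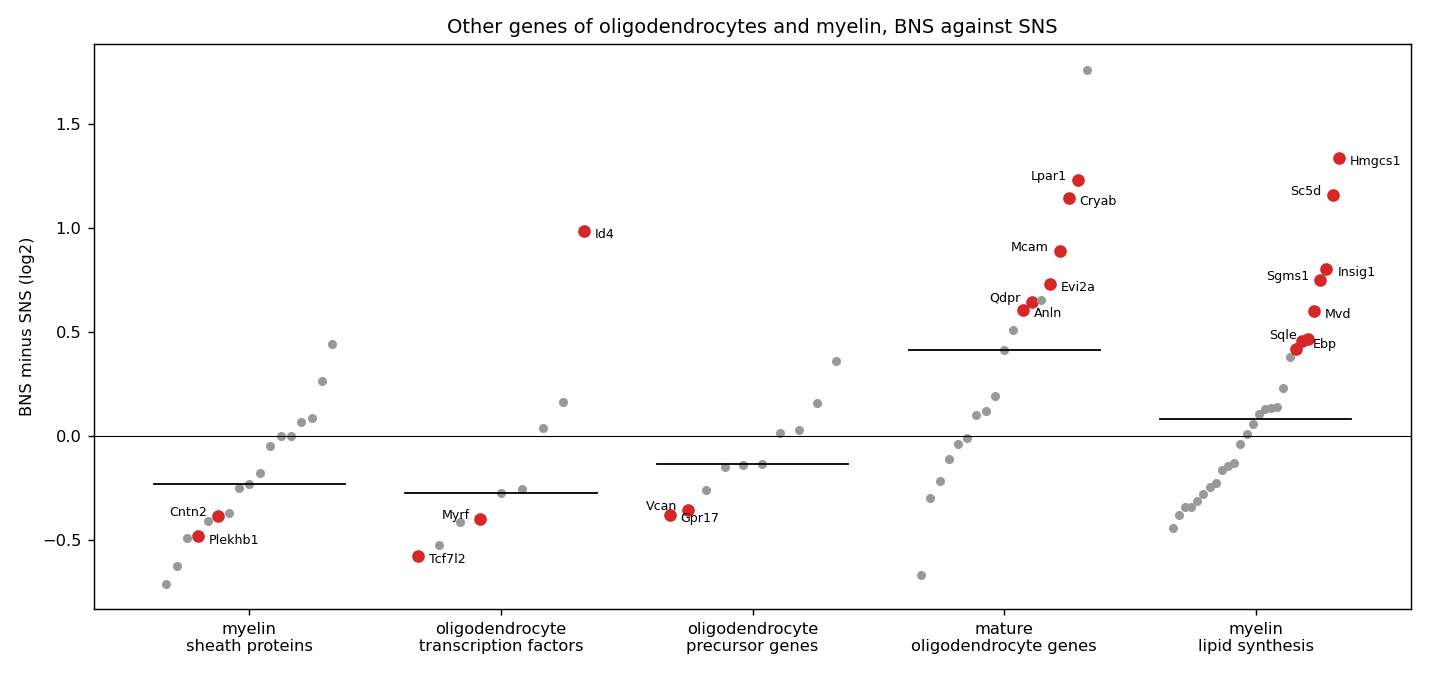
Differences from SNS to BNS (log2) of 83 other genes of 5 oligodendrocyte and myelin lists, with called genes in red, most of them named, and each list's median as a bar. The 8 called lipid genes and the 6 called genes of mature oligodendrocytes lie above 0, and the called sheath and precursor genes below it.

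Against SNS, Hmgcs1, Lpar1, Sgms1 and Mcam were also called in BYS, BYA and BYP, comparisons that share the SNS rats. Hmgcs1 was higher by 1.21, 1.24 and 1.12, Lpar1 by 1.04, 1.00 and 1.17, Sgms1 by 0.91, 0.88 and 0.94, and Mcam by 0.97, 0.77 and 1.19. Of the 83 genes, 15 were higher and 6 lower in BYS, 16 higher and 9 lower in BYA, and 14 higher and 15 lower in BYP. Of the 28 genes of lipid synthesis, 6 were higher and 2 lower in BYS, 8 higher and 4 lower in BYA, and 5 higher and 7 lower in BYP. Over all genes 27.1%, 31.3% and 28.9% were called in these comparisons. Among the betamethasone-exposed conditions, 1 of the 83 genes was called in 1 comparison: Carns1, the synthase of carnosine, was lower in BYP than in BNS (-0.69, adjusted p = 0.0201). In BYS against BNS the smallest p values belonged to Sqle (-0.29), Apod (0.60) and Insig1 (-0.38). In BYA against BYS they belonged to Fdft1 (0.37), Tm7sf2 (-0.47) and Sc5d (0.38), and in BYP against BYS to Carns1 (-0.43), Hes5 (-1.17) and Cspg4 (0.25). None of these 9 was called.

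Some markers of other cells were called in the comparison of SNS with BNS as well, in which 28.6% of all genes were. Of 9 neuron markers, Syt1 (0.50) and Gap43 (0.58) rose. Of 10 astrocyte markers, Gja1 rose (0.45) and Fgfr3 (-0.34) and Slc1a2 (-0.79) fell, and of 9 microglia markers, Cx3cr1 fell (-0.73). The log2 of the summed intensity of the astrocyte list ran from 16.1 to 16.3 in SNS and from 16.0 to 16.2 in BNS, and that of the microglia list from 14.7 to 14.9 and from 14.3 to 14.6. That of the neuron list ran from 16.8 to 17.2 and from 17.0 to 17.4. Of 8 markers of arcuate neurons, Tbx3 fell (-0.67). Of 7 endothelial and mural markers Kdr rose (0.52), of 7 ependyma and tanycyte markers Col23a1 fell (-0.45), and of 3 pituitary markers Pitx1 fell (-0.49). None of the 3 Schwann cell and 7 thalamus and ventromedial hypothalamus markers was called. Their part in the difference of Olig2 was not tested.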

How the data were processed

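Total RNA of the arcuate nucleus of 20 rats was hybridized, with Cy3 or Cy5 as the label, to 11 Agilent two-colour rat arrays. The authors deposited 1 scanner file per array. Per the file headers, the mean signals and median local backgrounds used here are intensities extracted with Agilent Feature Extraction 11.5.1.1 without normalization, and the deposited processed signals, used as an alternative, are intensities that the software background-subtracted, detrended and dye-normalized. The submitters' processing notes name version 10.7.3.1. The other columns used are deposited marks, with the values 0 or 1, for outliers, saturation and signals well above background. The 82 columns of values that belong to another series were not used.

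Of 44254 spots on an array, 42877 were no controls and made up 30367 probes, and 18643 probes were matched to current symbols. In each channel the background was corrected with normexp (offset 50), followed by quantile normalization of the 20 channels, as log2 values. This gives all channels the same distribution and hides a shift of all genes. Outlier spots (1.18%) were left out, and spots of a probe were averaged. A probe passed where a share of 0.5 or more of its spots was well above background in each of the 4 samples of any condition, which kept 19883 probes of 17086 genes. A gene's level is the mean of its probes that lack no value. Arrays give no counts, and 4 samples in a condition limit the precision, with 0.0286 as the smallest p of a permutation.

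The 10 comparisons were made in limma, two-sided, in 1 model of the 20 samples with dye as a term, with p-values adjusted over all genes by the Benjamini-Hochberg method. The p-values measure the spread between these rats and take the 20 channels as independent. With the array as a random block, the consensus correlation within an array was 0.365, so these p-values can be too small. From SNS to BNS, 2595 genes were then called in place of 4881. The fit was tested on simulated data. Departures of rats of like replicate number in different conditions had a mean correlation of 0.0031 (from -0.239 to 0.28), so no pairing was used. They were taken over the genes with values in all samples, with the dye effect removed. Dye goes with replicate number, so part of any effect of the number was removed with it.

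All 9 members were described. Differences are printed with statistics where called and for the smallest p in each of the 4 comparisons SNS with BNS, BNS with BYS, BYS with BYA and BYS with BYP, and other values of members are given as descriptions. Up to 6 called genes of the 5 oligodendrocyte lists are given in full for each comparison, up to 3 where none was called, with genes among the 5 most alike to the members. The further called genes, named with their difference alone, were named after their values were seen. The members and lists were chosen with earlier results of these data known. Alternatives were other scalings and background corrections, other filters on dim probes, kept outlier spots, arrays, slides or replicate numbers as blocks, fits of 2 conditions, the methods' t-test, single samples left out and, added later, each probe tested alone. The software was limma 3.58.1 and statmod 1.5.0 in R 4.3.3. Results of some genes under these rules are not reported here.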

Additional observations from a re-analysis of the deposited data

Results flagged for a closer look

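In 5 of 49 sets of 4 samples, 1 rat stood apart from the other 3 by its gap relative to the whole range, above Dixon's critical value. Chance alone marks about 1 in 20 such sets. For Mal, replicate 1 was high in BYS (8.00 against 7.76 for the next, a gap of 0.868 of the range) and in BYP (8.11 against 7.83, 0.836). For Olig1, replicate 1 was high in BYA (13.94 against 13.60, 0.920), and replicate 3 was low in SNS (13.04 against 13.56, 0.834) and in BYP (12.93 against 13.92, 0.873). Neither gene was called in a comparison of these conditions other than Mal between BYA and SNS.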

How the results depend on the processing

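The counts of called members, of 9, are those of limma unless said otherwise. With the channels brought to a common median, 0 were called in BNS against SNS and in BYP against SNS, 1 in BYA against SNS and 1 in BYP against BYS (Mal, adjusted p = 0.0459). That scaling moved the median of all genes to -0.14 in BNS against SNS and called 2654 genes (791 higher, 1863 lower) in place of 4881 (2585 higher, 2296 lower), and 2820 in place of 6 in BYP against BYS. Loess and Aquantile were run on the 9 arrays with 2 samples each, without BYA replicates 3 and 4. There 2 were called in BNS against SNS and 3 over the 5 conditions. With the processed signals, 1 was called in BYA against SNS, and 2340 genes in BNS against SNS. With probes well above background in all 20 samples, with outlier spots kept and with each probe alone, 2 were called in BNS, in BYS and in BYP against SNS and 2 over the 5 conditions, Olig2 and Mbp, whose value there is that of the shared probe or includes it. Mbp then differed by 0.031 between BYP and BYS in the first of these settings, the reverse of -0.57, since its value came from the other probe. In BYA against SNS, 3 were called with outlier spots kept, in place of 2. With the array as a random block, 1 was called in BYA against SNS and 2595 genes in BNS against SNS. With the slide as one, 2 were called in BNS and in BYS against SNS, 1 in BYP against BNS (Mbp, adjusted p = 0.0172) and 3 over the conditions, with 8157 genes in BNS against SNS. The consensus correlation within a slide was -0.128. Slide and condition cannot be told apart, so this setting cannot correct for the slide. In fits of 2 conditions, 2 were called in BNS and in BYS against SNS and 1 in BYA against SNS. The methods' t-test at its unadjusted threshold called 2 in BNS and in BYS against SNS and 1 in BYA against BYS (Olig2), and after Benjamini-Hochberg 1 in BYA against SNS. The cause of these shifts was not tested. With the replicate block no call of a member changed, and 5093 genes were called in BNS against SNS. With single samples left out, 1 to 2 were called in BNS against SNS, 1 to 2 in BYS against SNS, 1 to 3 in BYA against SNS, 1 in BYP against SNS, 1 to 2 over the conditions and 0 in the others. The added call in the comparisons was Mbp, without BYP replicate 1, and over the conditions Mbp without BYP replicate 1, 3 or 4 and Mal without BYA replicate 4. Over all genes and these settings, single samples aside, calls ran from 1446 to 7859 in BYS (4633 in the report's setting), 1223 to 7785 in BYA (5343) and 1373 to 8134 in BYP (4938) against SNS. They ran from 0 to 1293 in BYS against BNS (5), 0 to 852 in BYA against BYS (0), 0 to 1759 in BYA against BNS (20), 0 to 2653 in BYP against BNS (257) and 0 to 1181 in BYP against BYA (27). Olig2 kept its direction against SNS in all settings, from 0.49 (no filter on dim probes) to 1.05 in BNS against SNS, and lost its call in BNS and BYP in 1 of 15. Mal in BYA against SNS was called in 9 of 14 settings. Dim signals limit Mal, Ugt8, Mog and the variant probe of Mbp, which were well above background in 11, 17, 18 and 18 of 20 samples.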
